A study of Mus musculus with 8 samples.

Results

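Described here are 10 genes known as transcriptional targets of YAP and TEAD, chosen by name (Ccn1, Ccn2, Ankrd1, Amotl2, Ajuba, Axl, Crim1, F3, Nt5e and Ptpn14), out of 49315 Ensembl genes in the count tables. They were read in RNA sequencing libraries of heart muscle cells from C57/Bl6 mouse embryos at day 12.5, male and female pooled, which were isolated and treated in culture; the extraction protocol itself speaks only of dissected hearts. There were 4 libraries from control medium and 4 from medium with 10 µM simvastatin, a statin that blocks the enzyme making mevalonate, for a time that the sources used here do not give. The question put to these genes is whether, and by how much, they changed when mevalonate synthesis was blocked. Nothing in the labels says that replicates came from separate cultures or embryo pools, so the p-values rest on a spread between libraries that may be technical only.

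YAP and its paralogue TAZ are coactivators held in the cytoplasm when the kinases of the Hippo pathway phosphorylate them. When free to enter the nucleus they bind TEAD proteins on DNA and switch on genes of growth, adhesion and the cytoskeleton. YAP with TEAD drives cardiomyocyte proliferation in the embryonic heart, and the small GTPase RhoA, which carries a lipid made from mevalonate, is a known activator of YAP.

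Totals ran from 30474586 to 35215640 counts per library. Values are given as CPM on TMM-scaled library totals, and levels of different genes are compared only as CPM per kilobase of exon (RPKM). The cardiomyocyte label was borne out by Tnnt2, cardiac troponin T, at 11193 ± 577 CPM in controls and 11676 ± 443 CPM with simvastatin (SD, n = 4 per group). By the count columns' headers, replicates 1 and 3 of each group formed set 1 and replicates 2 and 4 set 2. The sources used here do not say what a set was. Markers of other cell types were present in both groups: the summed level of 8 fibroblast and mesenchyme markers ran from 1145 to 2541 CPM in controls and from 1236 to 1440.1 CPM with simvastatin, and that of 8 endothelial markers from 238 to 316 and from 232 to 297 CPM. In bulk RNA, fewer cells of a type and less RNA per cell cannot be told apart.

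The DNA just before the start sites of these genes is shown because TEAD proteins bind a short core, GGAATG or its reverse complement. RefSeq windows on GRCm38.p6 were found for 9 of the 10 genes, all but Ccn2, and the 250 bases before each start site were searched on both strands. In 7 of those 9 windows the core was present, in Ccn1, Ankrd1, Amotl2, Ajuba, Axl, Crim1 and Ptpn14, against 12.6% of 32851 windows of the same length over all genes and 11.1% of the windows of genes tested here. Ankrd1 and Ajuba each held 2 matches, and 1.02% of all windows held at least 2. A match is a description of these letters and not a bound site, and the absence of one in F3 and Nt5e covers only these 250 bases. For Amotl2 and Nt5e the RefSeq start sites, 102717804 and 88327609, lie downstream of the gene starts used for counting, 102716672 and 88327197. Both windows therefore lie within the gene as counted. The windows of 4 genes follow, each 5′ to 3′ on the gene's own strand, with the core in capitals: Ccn1 at chr3:145649986-145650235 (minus strand), Ankrd1 at chr19:36119845-36120094 (minus strand), Ajuba at chr14:54577662-54577911 (minus strand) and Ptpn14 at chr1:189728018-189728267 (plus strand).
Ccn1: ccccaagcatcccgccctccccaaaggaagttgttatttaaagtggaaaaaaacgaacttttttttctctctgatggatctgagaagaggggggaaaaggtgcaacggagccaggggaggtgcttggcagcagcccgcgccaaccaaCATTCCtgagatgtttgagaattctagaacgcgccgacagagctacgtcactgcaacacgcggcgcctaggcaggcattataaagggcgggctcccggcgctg
Ankrd1: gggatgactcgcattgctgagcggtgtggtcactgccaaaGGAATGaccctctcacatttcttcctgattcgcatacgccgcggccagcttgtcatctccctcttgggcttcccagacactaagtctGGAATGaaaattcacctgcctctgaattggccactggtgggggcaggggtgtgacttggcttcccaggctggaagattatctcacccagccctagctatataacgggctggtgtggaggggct
Ajuba: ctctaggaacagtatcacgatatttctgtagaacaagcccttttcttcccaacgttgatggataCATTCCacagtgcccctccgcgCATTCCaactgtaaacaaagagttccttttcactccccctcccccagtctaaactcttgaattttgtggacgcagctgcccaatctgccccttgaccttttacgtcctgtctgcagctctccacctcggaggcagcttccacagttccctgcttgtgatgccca
Ptpn14: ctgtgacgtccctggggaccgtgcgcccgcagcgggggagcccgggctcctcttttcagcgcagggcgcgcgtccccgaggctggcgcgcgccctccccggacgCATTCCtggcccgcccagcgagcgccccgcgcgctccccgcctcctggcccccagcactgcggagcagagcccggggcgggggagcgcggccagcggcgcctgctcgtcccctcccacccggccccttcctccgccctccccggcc
Ccn1, Ankrd1 and Ajuba were among the genes that fell with simvastatin and Ptpn14 was not, so the core stood before genes of both kinds. In Ccn1 the core began 103 bases before the start site, in Ankrd1 210 and 123 bases, in Ajuba 186 and 164 bases and in Ptpn14 146 bases. F3 held 2 matches to the AP-1 motif TGANTCA, beginning 146 and 135 bases before its start site, which 6.7% of all windows hold at least once and none of the other 8 members did. The CArG box bound by SRF was in 0 of the 9 windows and in 1.5% of all windows. At so low a share 0 of 9 is the usual outcome and tells nothing of SRF. It covers only these 250 bases, and Ccn2 had no window.

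**Figure D1:**
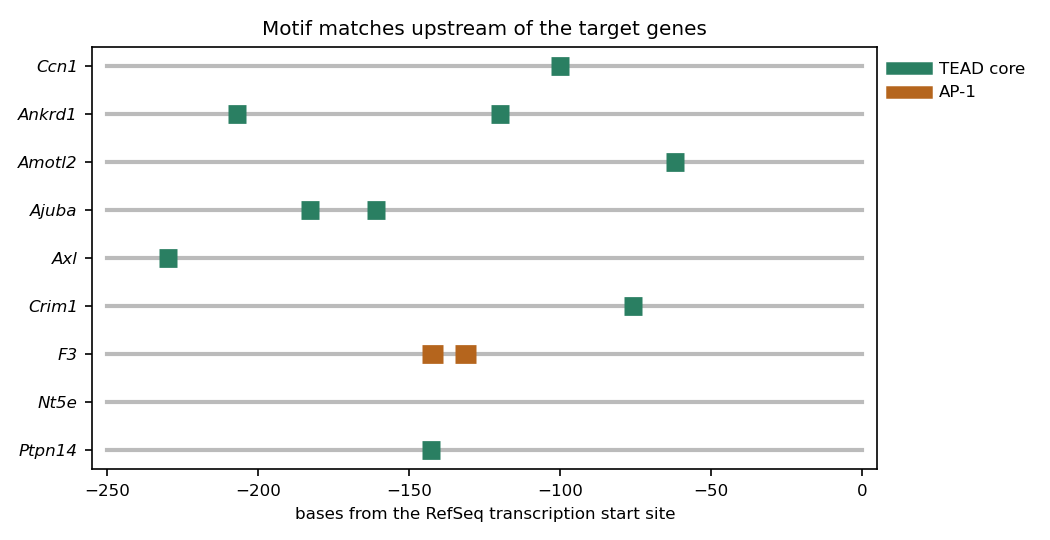
Matches to the TEAD core (green) and the AP-1 motif (brown) in the 250 bases before the RefSeq start site of 9 target genes; the x axis is the distance from the start site in bases. Of the 9 windows 7 hold the TEAD core, and Nt5e holds neither motif.

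With simvastatin, 8 of the 10 genes fell, 0 rose, and Nt5e and Ptpn14 did not pass the test. All 10 passed the filter on low counts. Over all 16126 genes tested, 9.61% fell (1549 genes) and 7.79% rose (quasi-likelihood test of edgeR at a Benjamini-Hochberg adjusted p under 0.05). The 8 genes were left at between 20.9% and 55.8% of their control mean, and 7 of them fell at least 2-fold, against 4.99% of all genes tested. Every simvastatin library lay below every control library for those 8 genes, as for 12.1% of all genes tested. Over the 10 genes the log2 fold change had a median of -1.47, against 0.01 over all genes tested; set 1 gave -1.51 and set 2 -1.18.

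**Figure D2:**
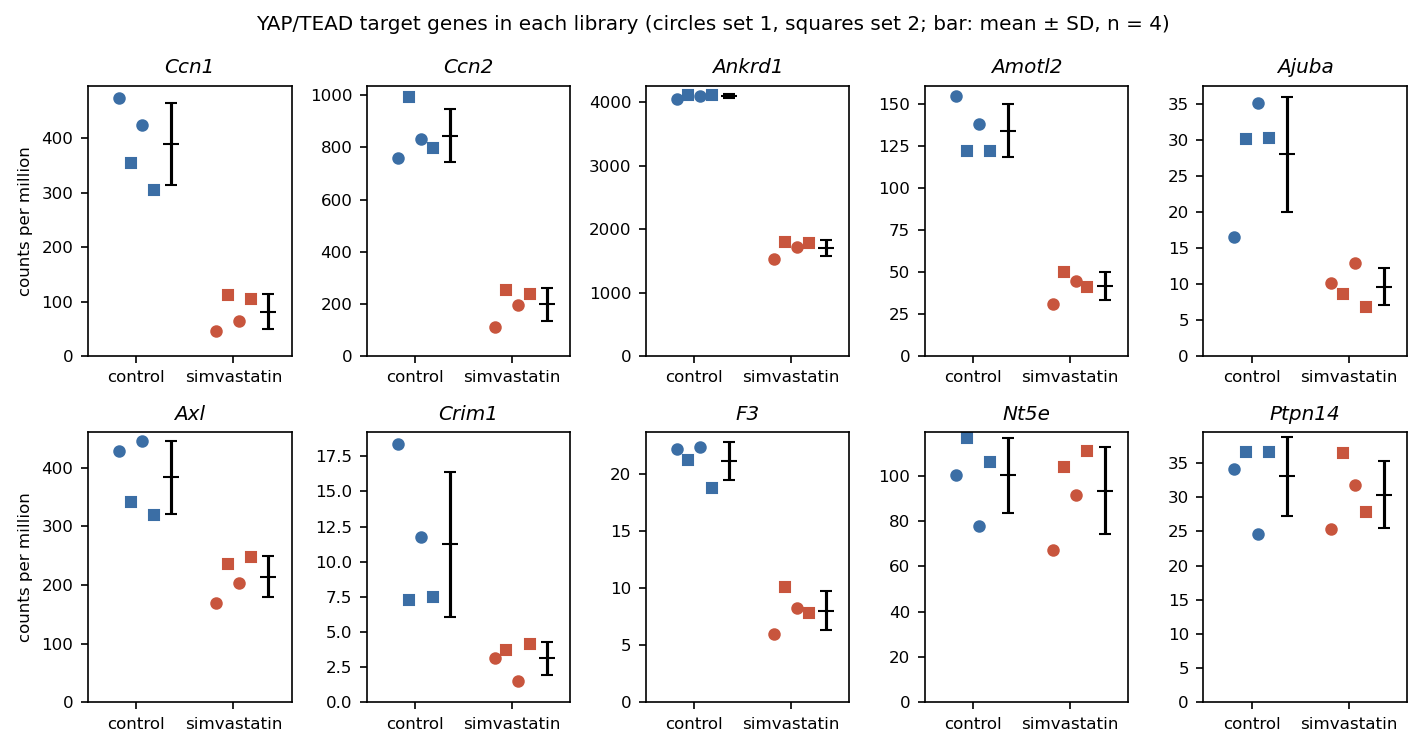
CPM of each target gene in the 8 libraries, with control in blue, simvastatin in red, set 1 as circles and set 2 as squares; bars are the mean ± SD of 4 libraries. The groups are apart in 8 panels and overlap in those of Nt5e and Ptpn14.

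Genes of secreted matrix proteins had the largest fold changes of the 10. Ccn1 (ENSMUSG00000028195, chromosome 3, 145646976 to 145649981), also called Cyr61, encodes a matricellular protein that binds integrins, and it stood at 475, 355, 425 and 305 CPM in control replicates 1 to 4 and at 45.8, 111, 64.5 and 105 CPM in simvastatin replicates 1 to 4. The lowest control lay well above the highest simvastatin library. The fall, from a mean of 389.8 ± 75.2 to 81.6 ± 31.6 CPM, was 4.78-fold (log2 fold change -2.26 ± 0.27 SE, edgeR adjusted p = 0.000301). Ccn2 (ENSMUSG00000019997, chromosome 10, 24595442 to 24598683), or connective tissue growth factor, is the related gene of the same family, and stood at 759, 992, 834 and 797 CPM in controls and at 112, 252, 195 and 236 CPM with simvastatin. Replicate 1 was the lowest library in both groups. Its means differed 4.26-fold (log2 fold change -2.09 ± 0.22 SE, edgeR adjusted p = 0.000151). Ccn2 overlaps the lowly expressed gene Gm15270 on the other strand, which went from 2.89 to 5.55 CPM, and reads of the pair cannot be told apart without the strand setting, which the sources used here do not give.

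Ankrd1 (ENSMUSG00000024803, chromosome 19, 36111965 to 36119844) encodes a cardiac ankyrin repeat protein that binds titin in the sarcomere and also enters the nucleus. In controls it stood at 4049.5, 4121, 4093 and 4117 CPM, and with simvastatin at 1523, 1805, 1712 and 1775 CPM. The controls lay so close together that their coefficient of variation was 0.799%, and with simvastatin it was 7.43%. The fall was 2.40-fold (log2 fold change -1.27 ± 0.08 SE, edgeR adjusted p = 1.66e-05), the smallest adjusted p of the 10 genes. Per kilobase Ankrd1 was the highest of the 10 in both groups, at 2320.1 ± 18.5 RPKM in controls and 965 ± 71.7 RPKM with simvastatin.

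Both adaptor proteins that feed back on the Hippo kinases fell. Amotl2 (ENSMUSG00000032531, chromosome 9, 102716672 to 102733418) encodes an angiomotin that binds YAP at cell junctions, and stood at 154, 122, 138 and 122 CPM in controls and at 30.7, 50.0, 44.8 and 41.0 CPM with simvastatin. That was a 3.22-fold fall (log2 fold change -1.69 ± 0.15 SE, edgeR adjusted p = 6.41e-05). Ajuba (ENSMUSG00000022178, chromosome 14, 54567469 to 54577661) encodes a LIM protein that inhibits LATS kinases, and stood at 16.5, 30.1, 35.1 and 30.2 CPM in controls and at 10.1, 8.55, 12.8 and 6.78 CPM with simvastatin. Control replicate 1 was the lowest control and lay closest to the treated libraries. Ajuba fell 2.93-fold (log2 fold change -1.55 ± 0.25 SE, edgeR adjusted p = 0.00199), with -1.97 in set 2, where it passed, and -1.20 in set 1 alone, where it did not (edgeR adjusted p = 0.105).

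Of the proteins of the cell surface, 3 fell and 1 did not pass. F3 (ENSMUSG00000028128, chromosome 3, 121723537 to 121735048) encodes tissue factor, which starts blood clotting, and stood at 22.2, 21.2, 22.4 and 18.8 CPM in controls and at 5.99, 10.1, 8.29 and 7.80 CPM with simvastatin. Its fall was 2.63-fold (log2 fold change -1.40 ± 0.17 SE, edgeR adjusted p = 0.000293). Axl (ENSMUSG00000002602, chromosome 7, 25757273 to 25788705), a receptor tyrosine kinase for the ligand GAS6, stood at 428, 342, 446 and 319 CPM in controls and at 169.6, 236, 203 and 248 CPM with simvastatin. The groups did not overlap, but of the 8 genes that fell Axl changed least, 1.79-fold (log2 fold change -0.84 ± 0.15 SE, edgeR adjusted p = 0.00302).

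Crim1 (ENSMUSG00000024074, chromosome 17, 78200248 to 78376592) encodes a membrane protein that binds BMP ligands, and it was the lowest of the 10 genes per kilobase. It stood at 18.3, 7.31, 11.8 and 7.51 CPM in controls and at 3.15, 3.74, 1.52 and 4.18 CPM with simvastatin, where the libraries held between 47 and 130 counts. Controls of set 1 were the higher ones. The fall was 3.57-fold (log2 fold change -1.83 ± 0.37 SE, edgeR adjusted p = 0.00617). Crim1 overlaps Fez2 on the other strand, a gene at 135 CPM in controls and 116 CPM with simvastatin, so its low value is uncertain without the strand setting.

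Nt5e (ENSMUSG00000032420, chromosome 9, 88327197 to 88372092) encodes CD73, the surface enzyme that makes adenosine from AMP, and stood at 100.3, 117, 77.7 and 106 CPM in controls and at 67.1, 104, 91.6 and 111 CPM with simvastatin. The 2 groups overlapped over most of their range. Its log2 fold change was -0.10 (95% interval -0.51 to 0.31, edgeR adjusted p = 0.758). Ptpn14 (ENSMUSG00000026604, chromosome 1, 189728268 to 189876695), a tyrosine phosphatase that binds YAP and restrains it, stood at 34.2, 36.7, 24.6 and 36.6 CPM in controls and at 25.3, 36.5, 31.8 and 27.9 CPM with simvastatin. Here too the groups overlapped, with a log2 fold change of -0.12 (95% interval -0.51 to 0.27, edgeR adjusted p = 0.685). Both intervals leave out a fall as large as the median of the 10 genes, and neither shows that the gene did not change.

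Per kilobase the order of the 10 genes in controls was Ankrd1, Ccn2 (296 ± 35.7 RPKM), Ccn1 (193 ± 37.2), Axl (76.2 ± 12.4), Amotl2 (21.3 ± 2.48), Nt5e (11.7 ± 1.91), F3 (8.37 ± 0.65), Ajuba (8.0 ± 2.28), Ptpn14 (2.46 ± 0.43) and Crim1 (1.87 ± 0.86). The ranges of F3 and Ajuba overlapped, as did those of Ptpn14 and Crim1, and all other neighbours in that order were apart. With simvastatin Axl, at 42.6 ± 7.01 RPKM, stood beside Ccn1 at 40.4 ± 15.6 and overlapped both Ccn1 and Ccn2 (69.4 ± 21.9). Nt5e, at 10.9 ± 2.25 RPKM, then stood above Amotl2 at 6.62 ± 1.30, with overlapping ranges. F3 (3.18 ± 0.67), Ajuba (2.73 ± 0.73) and Ptpn14 (2.26 ± 0.36) formed a run of overlapping neighbours, and Crim1 was lowest at 0.53 ± 0.19.

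Whether the genes fell in proportion was asked by setting each against Ccn2 in the same library. The mean log2 ratio to Ccn2 was higher with simvastatin by 1.31 for Axl, 0.88 for Ankrd1, 0.73 for F3, 2.04 for Nt5e and 2.03 for Ptpn14, and for these 5 ratios the groups did not overlap. Each of them reached the smallest p that 4 against 4 libraries allow, 0.0286 (exact permutation test, two-sided). After adjustment over the 9 ratios the exact permutation p was 0.0514, so none passed 0.05. At that smallest p, a ratio could pass only if more than these 5 reached it. Ccn2 itself had a log2 fold change of -2.09, so the ratio of an unchanged gene rises by about as much. The values of Nt5e and Ptpn14 therefore restate the fall of Ccn2. How many of all genes separate in their ratio to Ccn2 was not counted. The ratios of Ccn1 (-0.18), Crim1 (0.32), Amotl2 (0.45) and Ajuba (0.62) to Ccn2 overlapped between groups, with unadjusted exact permutation p of 0.457, 0.514, 0.0857 and 0.257.

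**Figure D3:**
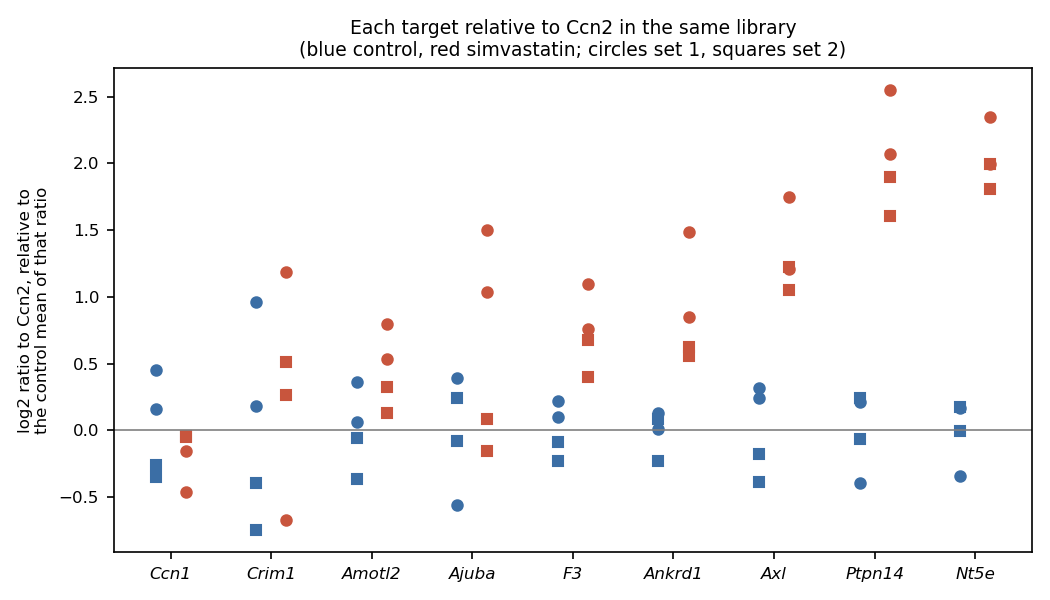
Log2 ratio of each target gene to Ccn2 in the same library, set to 0 at the control mean of that ratio; blue is control, red simvastatin, circles set 1 and squares set 2. The red points lie above all blue points for F3, Ankrd1, Axl, Ptpn14 and Nt5e and mix with them for the other 4 genes.

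Among the treated libraries simvastatin replicate 1 was the lowest for 6 of the 8 genes that fell, and replicate 2 was the highest for 5 of the 8. How often this held among all genes that fell was not counted. The summed level of the 10 genes ran from 5859 to 6143 CPM in controls and from 1992 to 2616 CPM with simvastatin, with Ankrd1 as the largest part.

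The log2 fold change was further from 0 in set 1 than in set 2 for 7 of the 8 genes, all but Ajuba. The share of all genes for which this held was not counted. Over all genes tested, the groups also lay further apart in set 1 on the first principal component of log2 CPM. There, controls of set 1 stood at -46.75 and -46.8 and treated libraries at 52.74 and 48.92. In set 2 controls stood at -33.14 and -36.08 and treated libraries at 29.98 and 31.12. Ccn1 had -3.05 in set 1 against -1.61 in set 2, Crim1 -2.69 against -0.90, and Axl -1.25 against -0.45. Controls of set 1 were higher for these 3 genes and treated libraries of set 1 lower: Ccn1 averaged 449.9 and 329.7 CPM in controls of sets 1 and 2, and 55.2 and 108.0 CPM with simvastatin. In a test of the difference itself 0 of the 10 genes passed, against 0.0558% of all genes tested (edgeR interaction of treatment and set, adjusted p = 0.064 for Ccn1, 0.0911 for Axl and 0.152 for Crim1), and those 3 genes had an unadjusted p under 0.05, as had 11.5% of all genes tested. Without control replicate 1 the edgeR interaction passed for Ccn1 and Axl, and for 1.94% of all genes tested (316 genes). Without control replicate 3 it passed for Ccn1, Ajuba, Axl and Crim1, and for 7.42% of all genes tested (1213 genes), so calls rose over all genes in both fits, with 1 control of set 1 then assumed to vary like the other libraries. Within set 1 alone 7 of the 10 genes fell and within set 2 alone 8, against 5.91% and 11.5% of the genes tested in each.

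Fibroblast and mesenchyme markers moved in the same direction between sets as Ccn1, Axl and Crim1, and were not the only cell type markers to do so. Falls passed the test for 3 of 8 such markers and rises for 0; their median log2 fold change, -0.50 over all libraries, was -1.14 in set 1 and 0.12 in set 2. Pdgfra, the PDGF receptor of mesenchymal cells, had -2.21 in set 1 against -0.20 in set 2, and Tcf21, an epicardial and fibroblast transcription factor, -2.63 against -0.17. The count of 3 was 6 in set 1 alone and 1 with limma-voom. It was 0 in set 2 alone, with set as a term or with the replicate number as a block. It was also 0 when any 1 of the 4 libraries of set 1 was left out. A lost call is not a lost effect, since the log2 fold changes of Pdgfra and Tcf21 had standard errors of 0.35 and 0.40. In set 2 alone 3 of the 8 markers rose. Over all libraries Dcn and Lum, named after their values were seen, had log2 fold changes of 0.53 and 0.11 and did not pass. None of the 8 markers was at 0, and their part in the falls was not tested. Of 6 tested smooth muscle and pericyte markers 4 fell and 1 rose, with summed levels of 302 to 377 CPM in controls and 376 to 471 CPM with simvastatin; Lmod1, a smooth muscle actin nucleator at 1.75 CPM in controls, had a log2 fold change of -3.87. The 1 that rose, Cspg4, the pericyte proteoglycan NG2, named after its values were seen, went from 152 to 315 CPM. Of 6 epicardial markers 2 fell and 1 rose, at 166 to 268 and 205 to 280.4 CPM, with -1.98 for Wt1, a transcription factor of the epicardium; the 1 that rose, named after its values were seen, was Msln, mesothelin, from 66.5 to 106 CPM. Of 8 endothelial markers 1 fell, Emcn from 91.1 to 19.5 CPM, and 2 rose, of which Tek went from 22.0 to 57.9 CPM. Of 8 cardiomyocyte markers 1 rose, Myh7 from 1440 to 3199 CPM. Beside the counts in all these marker lists, 9.61% of all genes tested fell and 7.79% rose. As a count, a call for 1 of 8 markers is thus close to those shares, which says nothing of the size of the change. Macrophage markers, of which 2 of 5 tested fell, summed to 61.0 to 70.6 CPM in controls and 43.9 to 53.9 CPM with simvastatin, and erythroid markers, of which 3 of 6 tested rose, to 8.40 to 13.8 and 16.9 to 40.1 CPM. Set medians of log2 fold change also moved toward 0 from set 1 to set 2 for smooth muscle and pericyte (-1.61, -0.50), epicardial (-0.84, -0.06) and macrophage markers (-0.71, -0.46). Those of cardiomyocyte (0.13, 0.07) and erythroid markers (1.42, 0.82) moved toward 0 as well, from above, and that of endothelial markers changed sign (0.13, -0.21). The part of these cell types in the falls was not tested.

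**Figure D4:**
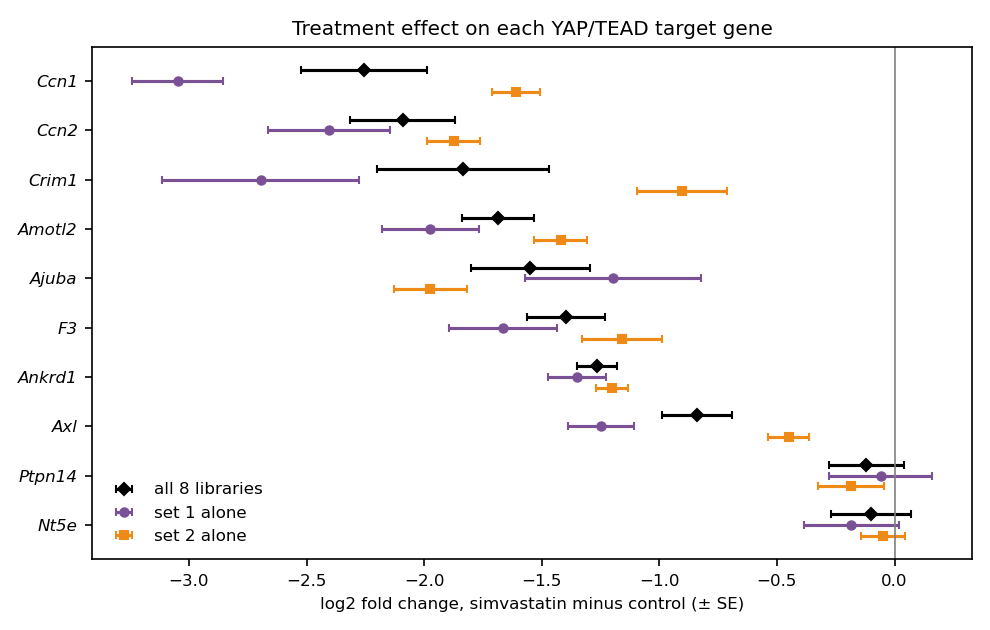
Log2 fold change (simvastatin minus control) of each target gene with its standard error, from all 8 libraries (black), set 1 alone (purple) and set 2 alone (orange). Ccn1, Crim1 and Axl show the widest gaps between sets, and Ptpn14 and Nt5e lie near 0 in each.

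Transcription factors that act on these genes, and their cofactors, make up a list of 10 genes, of which 8 were tested. Of these 1 fell and 0 rose, where 17.4% of all genes tested were called in either direction, and their log2 fold changes had a median of -0.20 (set 1 -0.03, set 2 -0.30). Yap1, which encodes YAP, stood at 17.4 ± 1.20 CPM in controls and 21.1 ± 4.15 CPM with simvastatin (log2 fold change 0.28, edgeR adjusted p = 0.246), and Wwtr1, which encodes TAZ, at 98.3 ± 15.7 and 93.1 ± 8.54 CPM (-0.08, edgeR adjusted p = 0.747). In set 2 alone Wwtr1 passed as lower (-0.34, edgeR adjusted p = 0.0437), while set 1 gave 0.18. Tead1 stood at 30.3 ± 7.38 and 27.1 ± 5.82 CPM, Tead2 at 56.1 ± 8.25 and 65.1 ± 8.39 CPM, Tead3 at 5.92 ± 1.37 and 4.23 ± 1.14 CPM and Tead4 at 0.97 ± 0.52 and 0.80 ± 0.52 CPM. None of the 4 TEAD genes passed the test. Vgll3, a cofactor that binds TEAD, fell from 4.65 ± 1.40 to 1.38 ± 0.87 CPM (edgeR adjusted p = 0.0136), a log2 fold change of -1.75, with -2.76 in set 1 and -0.88 in set 2, where alone it did not pass. Vgll4, a TEAD repressor, stood at 24.5 ± 3.30 and 20.7 ± 2.81 CPM. Counts of RNA say nothing of the phosphorylation or location of these proteins.

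Of 17 genes of the Hippo kinase cascade and its regulators 2 passed as lower and 1 as higher, a share close to the 17.4% of all genes called in either direction, around a median log2 fold change of -0.11 (set 1 -0.23, set 2 -0.02). Lats2, a kinase that phosphorylates YAP and is itself a known YAP target, fell by 0.68 on the log2 scale, from 30.0 ± 6.05 to 18.7 ± 1.34 CPM (edgeR adjusted p = 0.0114); in set 2 alone it did not pass (edgeR adjusted p = 0.0916). Its paralogue Lats1 stood at 6.50 ± 0.85 and 4.97 ± 0.45 CPM (-0.39, edgeR adjusted p = 0.134). Taok3, a kinase upstream of the cascade, rose with 0.63, a call that also ended in set 2 alone. Wwc1, the adaptor KIBRA, fell with -0.86 at a level of 2.18 ± 0.27 CPM in controls, and that call ended in 10 of 20 alternatives: when control replicate 2, 3 or 4 or simvastatin replicate 1, 3 or 4 was left out, in each set alone, with no filter and with the replicate block. Its log2 fold change stayed between -0.99 and -0.79 in all 20.

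A further list of 20 genes known as YAP or TEAD targets in other cells had 18 tested members. Of these 12 fell and 3 rose, against 9.61% and 7.79% of all genes tested. The median log2 fold change was -0.78 (set 1 -0.91, set 2 -0.50). Edn1, endothelin 1, fell from 21.6 ± 4.90 to 2.84 ± 1.65 CPM (edgeR adjusted p = 0.000521). Nuak2, a kinase of the AMPK family, fell from 12.2 ± 0.64 to 6.64 ± 0.77 CPM, a call that did not pass in set 1 alone, and Birc5, survivin, which is also a gene of mitosis, from 90.8 ± 13.3 to 27.2 ± 2.62 CPM. Lats2 stands in this list as well as among the Hippo kinases. The 3 that rose, named after their values were seen, were Gadd45a (log2 fold change 0.63), Tgfb1i1 (0.56) and Fstl1 (0.33), and their number was 1 without simvastatin replicate 3 or with the replicate number as a block, and 0 in set 1 alone.

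Genes driven by SRF and its actin-sensing cofactors make up another list, which also holds the factors Srf, Mrtfa and Mrtfb themselves. Ankrd1, Ccn1 and Ccn2 are known to answer to both YAP/TEAD and SRF. Of 21 SRF and actin genes 12 fell and 0 rose, against 9.61% and 7.79% of all genes tested. The median was -0.80 on the log2 scale (set 1 -0.89, set 2 -0.66). Mrtfa, named after its values were seen, was among the 12, with a log2 fold change of -0.59 (edgeR adjusted p = 0.0442). Its call ended in 11 of 20 alternatives. Acta2, the actin of smooth muscle, fell from 2582 ± 488 to 291 ± 87.0 CPM, Tagln, transgelin, with a log2 fold change of -3.30, Actg2 with -4.40 and Fhl1, a LIM protein, with -1.31. Actin genes share sequence, so their reads could be divided differently among them. The lists were not tested against each other.

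**Figure D5:**
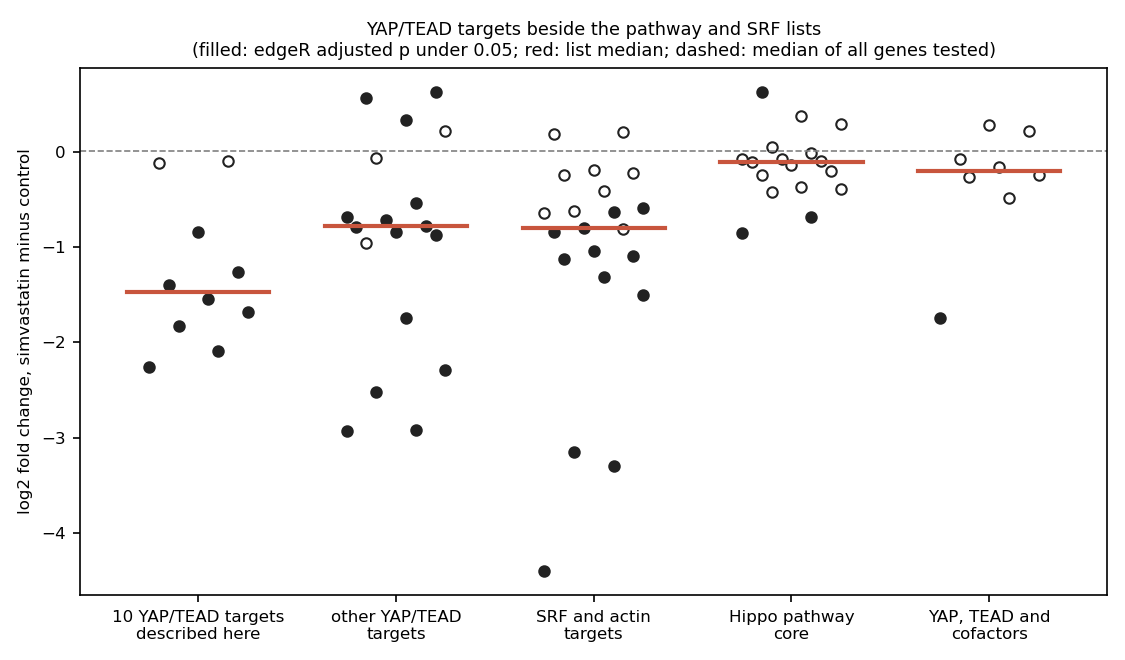
Log2 fold change (simvastatin minus control) of every tested gene in the 10 targets and 4 further lists; filled points passed the edgeR test at an adjusted p under 0.05, red lines are list medians and the dashed line is the median of all genes tested. The medians of the first 3 lists are -1.47, -0.78 and -0.80, and those of the Hippo core and of YAP, TEAD and cofactors are -0.11 and -0.20.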

How the data were processed

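The deposited values are raw read counts per Ensembl gene in 8 libraries. The submitters' processing notes list Trimmomatic 0.36, STAR 2.5.2b, featureCounts and Subread 1.5.2, and the builds GRCm38 and mm10. The sources used here do not name the annotation release or strand setting. Groups came from sample titles. Symbols matched 99.3% of identifiers; coordinates are those of the files (1-based).

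Genes were kept by filterByExpr, which left 16126 of 32927 with any count, and tested in edgeR 4.0.16 under R 4.3.3 (quasi-likelihood) with TMM scaling, treatment as the only term, two-sided, Benjamini-Hochberg adjusted over all genes tested at 0.05. The test was tried on simulated data with known changes. RPKM used the length in the files. Intervals of fold changes are approximate (t with 6 degrees of freedom). Ratios to Ccn2 were compared by exact permutation in scipy 1.17.1. Promoter windows came from RefSeq on GRCm38.p6. No 2 libraries of a group were copies of each other by a chi-square test of their counts.

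The members, lists and tests were chosen with earlier results of these data known. Genes named beside the 10 were up to 4 of the smallest p in each list, plus Lats1, Lats2, all tested YAP, TEAD and cofactor genes, up to 2 changed markers per cell type, and the 6 genes most like the 10. Exceptions are named in the text, and 1 gene is not reported here.

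Tried in place of these choices were library totals or the size factors of DESeq2 1.42.0 as scaling, its Wald test, limma-voom (limma 3.58.1), no filter beyond 1 count in total, 1 CPM in at least 4 libraries, the replicate number as a block, set as a term, each set alone, each library left out, mitochondrial and haemoglobin genes left out, and thinning to 30474586 counts.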

Additional observations from a re-analysis of the deposited data

Results flagged for a closer look

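In 4 of the groups examined, 1 library stood apart from the other 3 by Dixon's test, which chance alone gives in about 1 in 20 groups, and 86 groups of 4 were examined. None of these was a group of the 10 YAP/TEAD targets. Yap1 stood at 27.3 CPM in simvastatin replicate 1 against 18.4 to 19.6 CPM in the other treated libraries. Vgll4 stood at 29.4 CPM in control replicate 1 against 22.4 to 23.5 CPM in the other controls. The macrophage marker Adgre1 was at 11.7 CPM in simvastatin replicate 1 against 16.8 to 17.3 CPM, and the smooth muscle marker Myh11 at 1.80 CPM in control replicate 3 against 4.92 to 5.38 CPM.

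Among the genes named above, the effect of simvastatin differed between sets for 2, by the interaction of treatment and set in edgeR. Over all genes tested 9 passed that test (0.0558%). Acta2 had a log2 fold change of -3.80 in set 1 against -2.57 in set 2, a difference of 1.21 (edgeR adjusted p = 0.0379). Tcf21 had -2.63 against -0.17, a difference of 2.44 (edgeR adjusted p = 0.0351). In the fibroblast and mesenchyme list Col3a1 and Col1a2, named after their values were seen, passed as well. Col3a1 had -1.61 against -0.07, a difference of 1.52 (edgeR adjusted p = 0.0277). Col1a2 had -0.90 against 0.50, a difference of 1.38 (edgeR adjusted p = 0.0351).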

How the results depend on the processing

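For each of the 10 genes 20 alternatives were fitted, 200 fits in all, and 199 kept the direction of a called change and the side of the threshold. The exception was Ajuba in set 1 alone. The number of the 10 that fell was 7 there and 8 in the other 19 alternatives, each library left out included, and 0 rose in any. The count of genes whose treatment effect differed between sets was 0 in the fit reported, with library totals alone and with limma-voom, and ranged from 0 to 4 when 1 library was left out: 2 without control replicate 1 and 4 without control replicate 3, where 316 and 1213 of all genes passed against 9 with all libraries. Limma-voom gave an unadjusted p under 0.05 for 4 of the 10 in that comparison and edgeR for 3. Over all genes, set 1 alone gave 979 falls and 648 rises against 1549 and 1256 with all libraries. Differences in ratio to Ccn2 moved by less than 1 SD in each of the alternatives run. With the replicate number as a block 8 of the 10 genes fell; deviations of libraries with the same number correlated at -0.16 to 0.13, over 0.1 in 1 of 4 pairs, so the numbers were not taken to pair the samples. Depth limits most the value of Crim1, with as few as 47 counts in a treated library.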

Other observations

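The genes most like the 10 YAP/TEAD targets over the 8 libraries were Ndc1, Eif1ad, Klhl6, Hmmr, Ect2 and Neil3, by the Pearson correlation of log2 CPM with the mean of the 10 standardised profiles (0.9937 to 0.9965, 8 libraries in 2 groups that lie apart). These values follow mainly the split between control and simvastatin: 302 of 9847 genes had a correlation of at least 0.95. Hmmr, a spindle protein, went from 72.6 to 22.6 CPM, Ect2, which activates RhoA in cytokinesis, from 47.3 to 12.5 CPM, and Neil3, a DNA glycosylase, from 13.4 to 2.74 CPM. Ndc1, of the nuclear pore, went from 67.4 to 24.9 CPM, Klhl6 from 72.2 to 33.6 CPM and Eif1ad from 89.7 to 69.5 CPM. Of the 10 targets themselves Ccn2 was nearest to their mean profile (0.9911) and Ptpn14 (0.4632) and Nt5e (0.4782) farthest. Each target is itself part of that mean, which raises its value, so these values do not compare with those of the genes outside it.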
